A study of Mus with 4 samples.

Results

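The guanylate-binding proteins (GBPs) and the immunity-related GTPases (IRGs) are 2 families of interferon-induced GTPases, of which 10 mouse genes were listed by symbol. The platform annotation held 7 of the 10, namely Gbp2, Gbp3, Gbp7, Irgm1, Irgm2, Igtp and Iigp1, out of 19505 genes in all. The symbols Gbp5, Gbp6 and Tgtp1 are not in that annotation and were left out. Each of the 7 was read by 1 probe set, and all 7 passed the filter on level that left 10021 genes.

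The RNA came from subcutaneous tumors of Renca cells, a mouse renal adenocarcinoma line. Before injection the cells had been given either a control hairpin RNA (shCtrl) or one directed at Nrf3 (shNrf3), a cap'n'collar transcription factor encoded by Nfe2l3. Male BALB/cCrSlc mice, bought at 4 to 6 weeks of age, were fed for 17 weeks on normal chow (NC, CE-2) or on high-fat food (HFD, HFD-60), and tumors were collected 2 weeks after injection into the flank. Each construct was paired with each diet, which gives 4 groups, with 1 Affymetrix array in each. All 4 shared the Renca line, the strain and the site of injection, and every group carried a stably expressed hairpin. The labels do not say whether the lines were single clones or pools, which hairpin sequence was used, or whether an array holds 1 tumor or several. The hairpin was carried by the injected cells, while the other cells of the tumor came from the host mouse. In such bulk tissue fewer cells of a type and less RNA per cell cannot be told apart.

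Both families are induced through the same route. Interferon-gamma binds its receptor, the kinases JAK1 and JAK2 pass the signal on, and transcription factors such as IRF1 switch on GBP and IRG genes in macrophages and in most other cells, including many tumor cells. Type I interferons signal through another receptor, with STAT2 and IRF9 among its factors, and also induce members of both families. The GBPs assemble on the membranes of vacuoles and bacteria inside the cell and promote inflammasome activation, whereas the IRGs divide into effectors, which coat pathogen vacuoles, and the regulators Irgm1, Irgm2 and Igtp, which sit on the cell's own membranes and keep the effectors inactive there. In the RefSeq gene table of assembly GRCm38.p6, used only for names and order, Gbp7 and Gbp3 are next to each other with Gbp2 nearby, and Igtp and Irgm2 are next to each other.

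Levels are log2 RMA signals, on which a difference of 1 is 2-fold, and can be compared between arrays for the same gene but not between genes. The negative control rows had medians of 5.35 to 5.39 and 95th percentiles of 8.97 to 9.35 on the 4 arrays. The 7 genes lay above the 95th percentile of their array everywhere except for Iigp1 on the shCtrl-NC array. The targeted gene Nfe2l3 read 6.22 on shCtrl-NC, 5.56 on shNrf3-NC, 5.77 on shCtrl-HFD and 6.05 on shNrf3-HFD. It was thus lower on the array labelled shNrf3 in NC and higher on that in HFD, far below the control 95th percentile in every case. Directions below therefore rest on the labels of the arrays, not on a measured loss of Nfe2l3. Of 10 epithelial and tubule markers, Krt8 read 14.32 to 15.08 and Krt18 14.46 to 15.90, both named after their values were seen, while 3 (Pax2, Pax8 and Cdh16) read below the control median on all 4 arrays.

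All 7 GBP and IRG genes read higher on the arrays labelled shNrf3 than on those labelled shCtrl, in both diets. The share of all genes with that direction, at any size, is not given here. In NC a difference of 2-fold or more was seen for 6 of the 7, all higher, where 13.2% of all 10021 genes were that much higher and 4.47% lower. In HFD it was seen for 3 of the 7, again all higher, where 2.3% of all genes were higher and 6.95% lower. The median difference of the 7 was 2.28 in NC and 0.77 in HFD, beside 0.14 and -0.14 over all genes. Gbp2, Igtp and Iigp1, 3 of the 7, reached 2-fold in NC and again in HFD, against 0.798% of all genes.

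**Figure D1:**
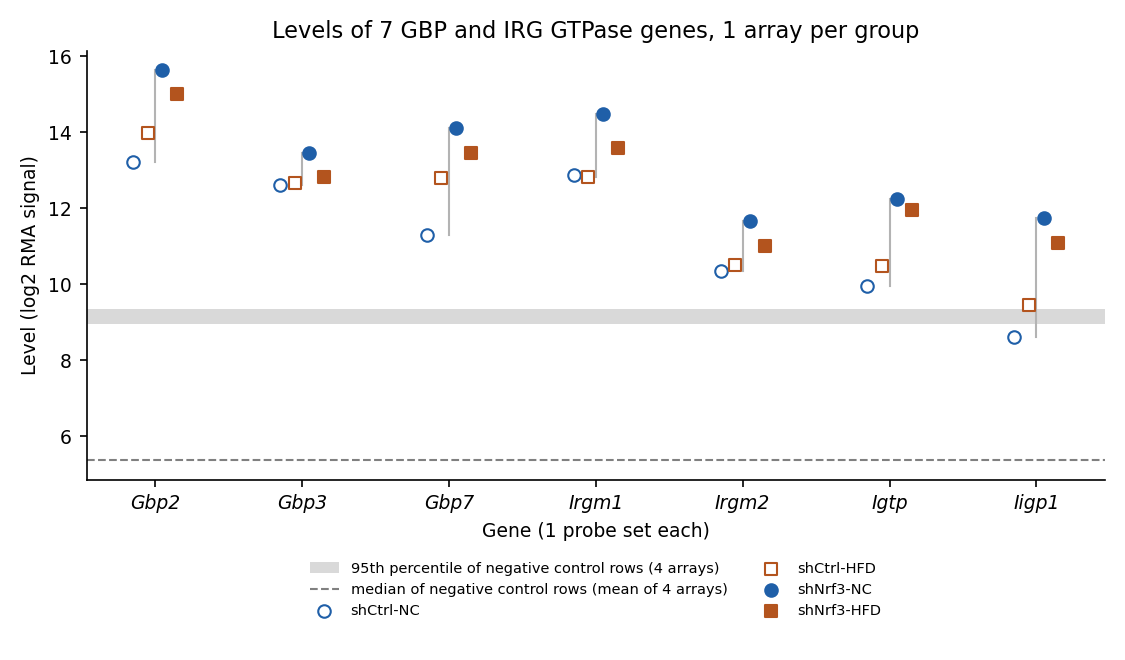
Level of each gene (log2 RMA signal, vertical axis) on the 4 arrays, with open symbols for shCtrl, filled for shNrf3, circles for NC and squares for HFD; grey lines span each gene's range and the band and dashed line mark the negative control rows. For each of the 7 genes both filled symbols lie above both open ones, from the narrow range of Gbp3 (12.62 to 13.45) to the wide one of Iigp1 (8.61 to 11.74).

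Among the GBPs, Gbp2, which reaches membranes through a lipid anchor at its C terminus, read 13.21 on shCtrl-NC, 15.63 on shNrf3-NC, 13.97 on shCtrl-HFD and 15.01 on shNrf3-HFD. Both arrays labelled shNrf3 were above both labelled shCtrl, with differences of 2.42 in NC (5.34-fold) and 1.03 in HFD (2.04-fold). Gbp7, a GBP linked to assembly of the phagocyte NADPH oxidase, read 11.30, 14.10, 12.80 and 13.46 in the same order of arrays. Its NC difference of 2.81 (6.99-fold) came after that of Iigp1 alone, but its HFD difference was 0.66, and its shCtrl-HFD array stood 1.5 above shCtrl-NC. Gbp3, a close relative of Gbp2 in the same cluster, read 12.62, 13.45, 12.67 and 12.82. It had the smallest differences of the 7, with 0.83 in NC and 0.15 in HFD, and its array labelled shNrf3-HFD stood hardly above either shCtrl array.

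Of the regulatory IRGs, Irgm1, which has been tied to autophagy and to the control of interferon responses, read 12.88 on shCtrl-NC, 14.48 on shNrf3-NC, 12.83 on shCtrl-HFD and 13.59 on shNrf3-HFD. Its shCtrl arrays were nearly equal, and its differences were 1.60 in NC and 0.77 in HFD. Irgm2 read 10.35, 11.66, 10.52 and 11.01, with differences of 1.30 and 0.49. Igtp, also called Irgm3 and found on the endoplasmic reticulum and lipid droplets, read 9.96, 12.24, 10.47 and 11.94. Igtp had the largest differences of the 3 regulators, 2.28 in NC (4.85-fold) and 1.47 in HFD (2.77-fold), and its 2 arrays labelled shNrf3 lay closer together than those of any other of the 7 genes.

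The effector Iigp1, which loads onto the vacuole of the parasite Toxoplasma, read 8.61 on shCtrl-NC, 11.74 on shNrf3-NC, 9.45 on shCtrl-HFD and 11.08 on shNrf3-HFD. It had the largest differences of the 7 in both diets, 3.13 in NC and 1.64 in HFD. Since its shCtrl-NC level lies below the 95th percentile of the control rows, the NC value is given as a difference and not as a fold. Ordered by the NC difference over all 10021 genes, Iigp1 ranked 32nd from the top, Gbp7 45th, Gbp2 91st, Igtp 110th, Irgm1 427th, Irgm2 761st and Gbp3 1771st. In HFD the ranks were 27 for Iigp1, 43 for Igtp, 210 for Gbp2, 507 for Irgm1, 728 for Gbp7, 1184 for Irgm2 and 2824 for Gbp3. Iigp1 headed the 7 in both diets and Gbp3 came last in both, while Gbp7 stood behind only Iigp1 in NC and behind 4 of the others in HFD.

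**Figure D2:**
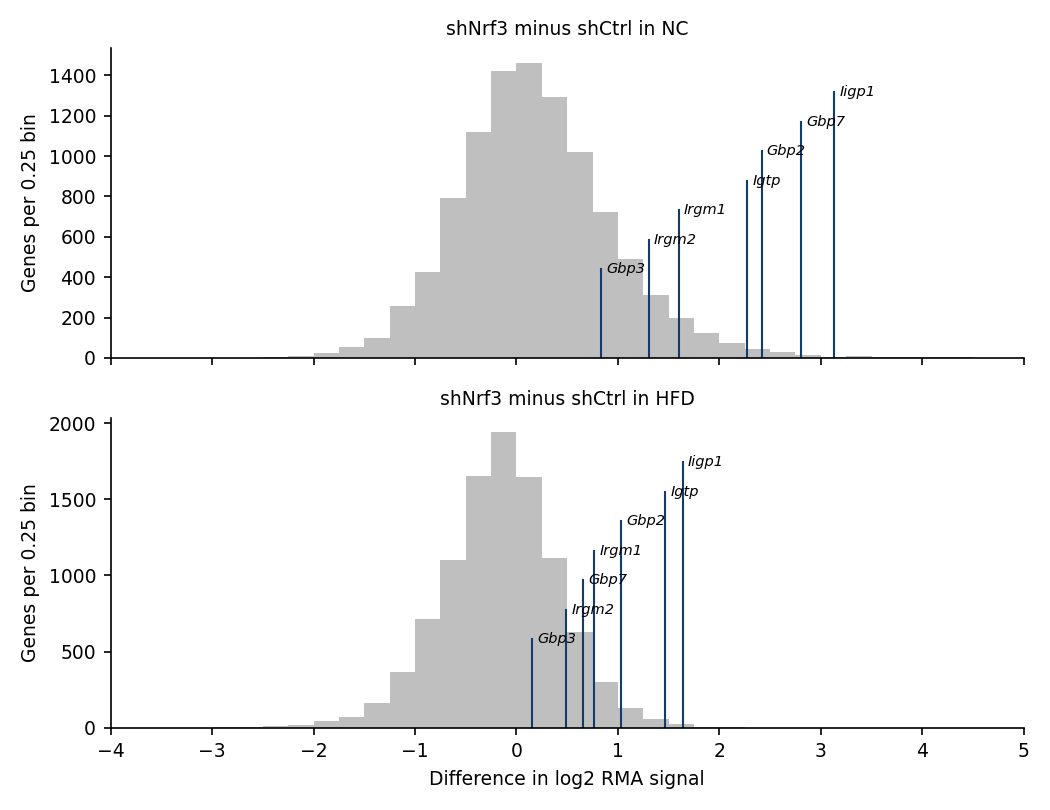
Number of genes (vertical axis) in each bin of the shNrf3 minus shCtrl difference (log2, horizontal axis, shown from -4 to 5) over the 10021 genes past the filter, in NC (top) and HFD (bottom), with the 7 genes marked by lines whose heights only separate the names. In NC the 7 lie from 0.83 to 3.13, to the right of the overall median of 0.14, and in HFD from 0.15 to 1.64, to the right of -0.14.

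With 1 array per group no single comparison has a replicate check or a test. Grouped by construct, both arrays labelled shNrf3 lay above both labelled shCtrl for 7 of the 7 genes, against 16.4% of all genes. An exact two-sided permutation of 2 arrays against 2 cannot give a p under 0.333. A limma fit with additive terms for construct and diet, which takes the construct by diet interaction as its error, gave a construct estimate of 2.38 ± 0.48 (SE, 4 arrays) for Iigp1, 1.87 ± 0.41 for Igtp, 1.73 ± 0.56 for Gbp7, 1.72 ± 0.46 for Gbp2, 1.18 ± 0.41 for Irgm1, 0.90 ± 0.41 for Irgm2 and 0.49 ± 0.40 for Gbp3. In this limma fit 0 of the 7 passed a Benjamini-Hochberg adjusted p of 0.05 (0% of all genes did), with adjusted p from 0.929 for Iigp1 to 0.961, and 5 of the 7 had an unadjusted p under 0.05, beside 4.46% of all genes. The 5 were Iigp1, Igtp, Gbp2, Gbp7 and Irgm1. When each array was instead centred on the median of its named probe sets past the filter, Iigp1 passed the limma threshold, with an adjusted p of 0.0199, and the other 6 did not. Under 7 other settings of this limma fit, the deposited scaling included, the smallest adjusted p among the 7 genes ran from 0.232 to 0.959.

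The difference between the arrays labelled shNrf3 and shCtrl was smaller in HFD than in NC for each of the 7 genes. The HFD difference minus the NC difference was -2.15 for Gbp7, -1.49 for Iigp1, -1.39 for Gbp2, -0.83 for Irgm1, -0.81 for both Irgm2 and Igtp and -0.68 for Gbp3. The median of the 7 was -0.83, beside -0.30 over all genes (quartiles -0.90 and 0.23), so genes at large leaned the same way. The share of all genes below 0 is not given here. Over the settings the median of the 7 ran from -0.98 to -0.41. It was -0.86 for other entries of both families, -1.36 for other interferon-gamma-induced genes and -1.38 for type I interferon-stimulated genes. This contrast uses all 4 arrays and was not tested.

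Between diets 6 of the 7 genes went opposite ways in the 2 constructs, all but Irgm1, which read lower in HFD with both. For this count and the directions with each construct below, no share of all genes is given, only medians. With shCtrl the HFD array was higher than the NC array for 6 of the 7, with a median difference of 0.51 beside 0.26 over all genes. Only Gbp7 was 2-fold or more higher (1.5), which makes 1 of the 7 where 14.5% of all genes were higher and 3.79% lower. That share is near the background. For the other 6 the difference ran from -0.05 for Irgm1 to 0.84 for Iigp1. With shNrf3 the HFD array was lower for 7 of the 7, with a median of -0.64 beside -0.03 over all genes. None of the 7 was 2-fold or more lower or higher there, where 4.93% and 1.76% of all genes were, and the differences ran from -0.88 for Irgm1 to -0.30 for Igtp.

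**Figure D3:**
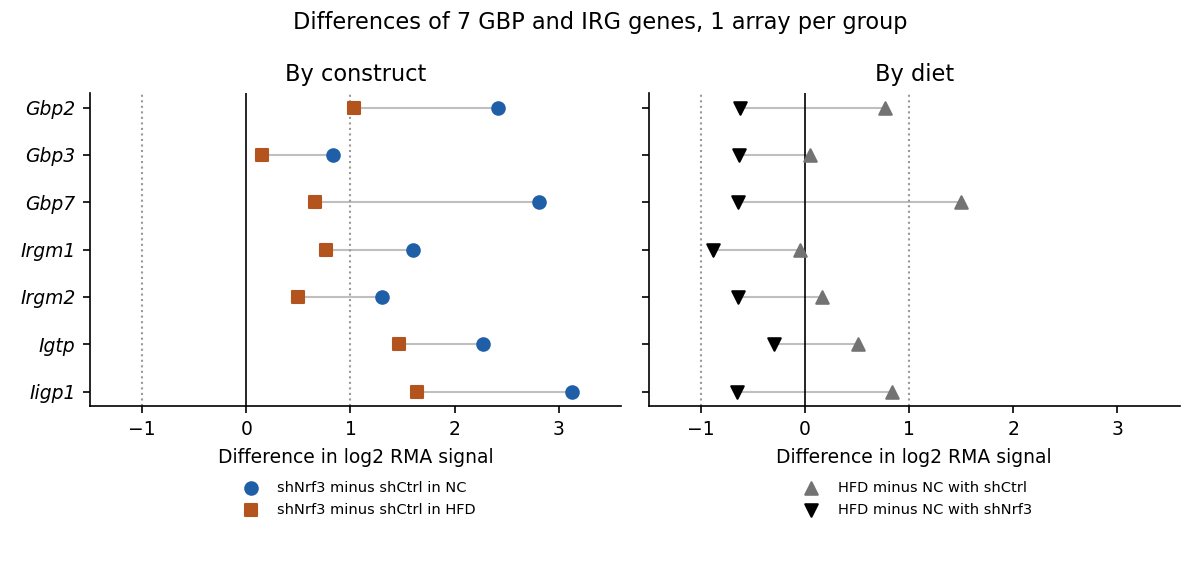
Difference in log2 RMA signal (horizontal axis) for each of the 7 genes, by construct within each diet (left) and by diet within each construct (right); dotted lines mark 2-fold. By construct every symbol lies to the right of 0 and each NC circle to the right of its HFD square, while by diet the shNrf3 symbols lie between -0.88 and -0.30 and the shCtrl symbols between -0.05 and 1.5.

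Gbp2, Gbp7 and Iigp1, 3 of the 7, were 1.5-fold or more higher in HFD with shCtrl and 1.5-fold or more lower with shNrf3, against 4.79% of all genes. After cyclic loess this held for 1 of them (Gbp7, against 3.49% of all genes) and after centring on genes past the filter for 0 (2.24%). The arrays stood in the order shCtrl-NC, shCtrl-HFD, shNrf3-HFD, shNrf3-NC from low to high for 6 of the 7, where 6.91% of all genes had this order. Irgm1 differed only in the order of its 2 shCtrl arrays, which were 0.05 apart. That order of the 4 arrays depended on the scaling. It held for 4 of the 7 after cyclic loess, 4 after centring on genes past the filter and 7 after centring on transcript rows. Grouped by diet, 0 of the 7 had both HFD arrays above or below both NC arrays (30.6% of all genes did). That 0 was fixed by their separation by construct, which puts 1 array of each diet on top. It is no separate result on diet. The diet estimates of the limma fit ran from -0.47 for Irgm1 to 0.43 for Gbp7, with SEs of 0.40 to 0.56. In that limma fit 0 of the 7 passed an adjusted p of 0.05 (0% of all genes) and 0 had an unadjusted p under 0.05, beside 2.91% of all genes. The construct and diet comparisons share arrays, so their values are set side by side and not correlated.

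The direction by diet with shCtrl depended on the scaling for part of the list. For Gbp3 and Irgm2 the difference of 0.05 and 0.17 became -0.31 and -0.15 after cyclic loess between arrays and -0.26 and -0.15 after centring on genes past the filter, and for Irgm1 the -0.05 became 0.06 after centring on all transcript rows. The differences by construct of the 7 kept their sign under each of these scalings. After cyclic loess the arrays labelled shNrf3 lay above both shCtrl arrays for 6 of the 7, since the shNrf3-HFD level of Gbp3 fell below its shCtrl-NC level.

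Of 18 other entries of both families fixed in a list, 13 were measured. In NC 8 of the 13 were 2-fold or more higher on the array labelled shNrf3 and 0 lower (median 1.32), and in HFD 4 were higher and 0 lower (median 0.39). The 4 higher in both diets were Gbp4, Gbp8, Gm4951 and F830016B08Rik. Gbp4 read 13.10 on shCtrl-NC, 15.84 on shNrf3-NC, 13.79 on shCtrl-HFD and 14.88 on shNrf3-HFD. Gbp8 read 8.97, 11.39, 9.53 and 10.65 in that order. Both followed the order of arrays of most of the 7 genes, as did Gm12250, also known as Irgb10, which acts with GBPs at bacterial membranes (9.48, 12.05, 10.22 and 11.17). Gbp9 differed by 0.12 in NC and 0.47 in HFD, and its NC sign turned after loess and after centring on genes past the filter.

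Gm4951 and F830016B08Rik, the latter next to Iigp1 in the RefSeq table, are IRG-like genes. Gm4951 read 7.72, 11.42, 9.49 and 10.60, with differences of 3.71 in NC and 1.11 in HFD. F830016B08Rik read 5.01, 7.03, 5.25 and 6.43, below the control median on both shCtrl arrays, so its differences are bounds of 1.65 or more and 1.07 or more. Gm4841 differed by 2.66 in NC and 0.31 in HFD, and the very large GTPase gene Gvin1 by 1.20 and 0.39.

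Tgtp2, the near-identical copy of Tgtp1, which the annotation lacks, read 12.25, 13.57, 12.75 and 12.73. It was 1.32 higher in NC, while its HFD arrays differed by -0.02, a sign that turned after loess. The pair 9930111J21Rik1 and 9930111J21Rik2 differed by 0.09 and 0.11 in NC and by -0.33 and -0.22 in HFD, with the NC signs turned after loess. Irgq, a relative thought to lack GTPase activity, differed by 0.13 and -0.73, and the testis gene Irgc1 read below the control median on all 4 arrays. GBP and IRG genes are close in sequence, so a probe set may in part read a relative, and the members of each cluster cannot be taken as independent readings.

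Genes induced by interferon-gamma outside both families read higher on the array labelled shNrf3 in NC for 21 of 21. In HFD 16 of 21 had a difference above 0. For 1 of these 16, Ubd, both HFD readings lay below the control median, so its 0.03 is only the gap between the medians of the 2 arrays. Of the 21 measured of 23 listed, 15 were higher by 2-fold or more in NC, with 0 lower (median 1.58), and 5 were higher and 1 lower in HFD (median 0.24). The largest averaged differences were those of the chemokine gene Cxcl9 (4.25 in NC and 3.24 in HFD) and of the MHC class II genes H2-Ab1 (4.21 and 2.03) and H2-Aa (3.84 and 1.68). The other 2 of the 5 were H2-Eb1 (1.65 in HFD) and the checkpoint ligand gene Cd274 (1.33). The 1 gene lower by 2-fold in HFD was Serping1, an inhibitor of complement C1 (-1.86, and 1.58 in NC). The others with a difference below 0 in HFD were Ido1, which degrades tryptophan (-0.63), Gch1 (-0.57), the peptide transporter gene Tap2 (-0.15) and Cxcl10, nearly level on both arrays. Ubd and these 7 were named after their values were seen.

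Genes best known as targets of type I interferon read mostly lower on the array labelled shNrf3-HFD than on shCtrl-HFD. With shCtrl 20 of 20 read higher in HFD than in NC, with a median of 0.89 beside 0.26 over all genes. In summed level (log2 of the summed signals) shCtrl-HFD was highest, at 15.74. The others were 14.74 on shCtrl-NC, 15.18 on shNrf3-NC and 14.62 on shNrf3-HFD. Of 20 measured of 22 listed, 3 were higher by 2-fold or more in NC, with 0 lower (median 0.31), and 0 were higher and 9 lower in HFD (median -0.92). Over all genes 13.2% were higher in NC, near the share of these 20, and 6.95% lower in HFD (median -0.14). The 3, named after their values were seen, were Zbp1 (1.47), Bst2 (1.33) and Ifit1 (1.30). The largest averaged differences were those of the antiviral GTPase gene Mx2 (-0.51 in NC and -1.83 in HFD), the nucleotide kinase gene Cmpk2 (-0.64 and -1.52) and the oligoadenylate synthetase gene Oas2 (-0.15 and -1.92). In HFD 19 of the 20 read lower on the array labelled shNrf3, all but Ifit2 (0.37, named after its value was seen), against 0 of the 7 GBP and IRG genes. The HFD median stayed below 0 under each scaling, from -0.96 to -0.71. The difference between these lists was not tested.

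**Figure D4:**
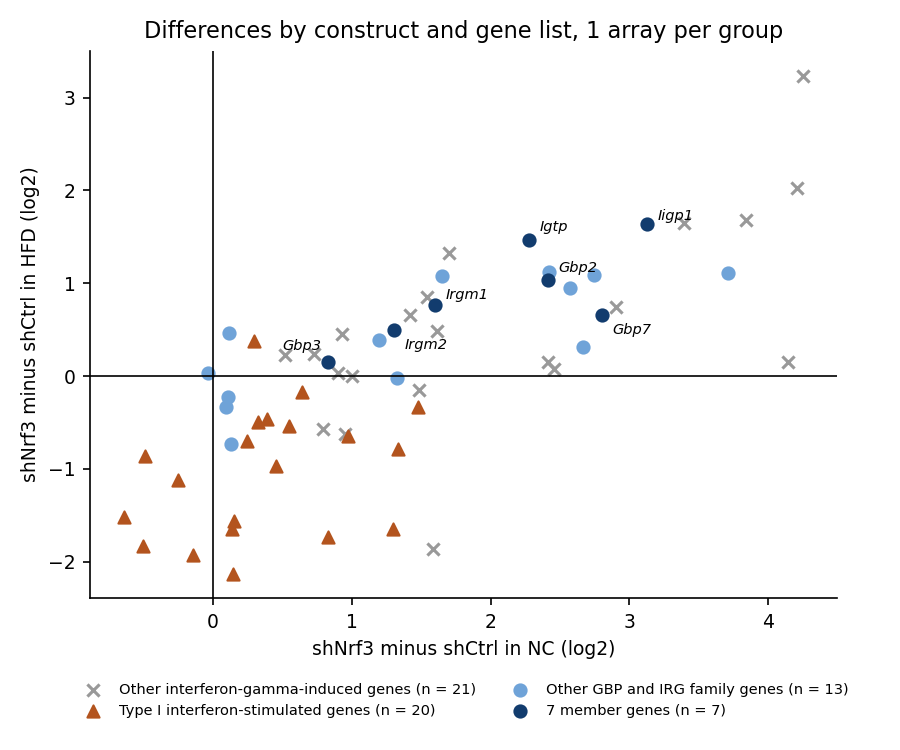
The shNrf3 minus shCtrl difference (log2) in NC (horizontal axis) and HFD (vertical axis) for the 7 genes (dark circles), 13 other GBP and IRG genes (light circles), 20 type I interferon-stimulated genes (triangles) and 21 other interferon-gamma-induced genes (crosses). The dark circles lie to the right of 0 and above 0, while 19 of the 20 triangles lie below 0 on the vertical axis.

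Upstream genes of the pathway were read next to the 7, with no test between them. The ligand gene Ifng read 4.71 on shCtrl-NC, 5.49 on shNrf3-NC, 4.53 on shCtrl-HFD and 6.29 on shNrf3-HFD, below or near the control median of 5.35 to 5.39. Both shCtrl arrays lay below that median, so its differences are bounds of 0.11 or more in NC and 0.93 or more in HFD, and the NC bound turned to -0.10 after centring on genes past the filter. The receptor genes Ifngr1 (0.10 in NC and -0.33 in HFD) and Ifngr2 (-0.40 and -0.56), and the kinase genes Jak1 (-0.29 and -0.37) and Jak2 (-0.42 and -0.56), were within 1.5-fold at the deposited scaling. Jak2 passed 1.5-fold in NC after loess (-0.70) and after centring on genes past the filter (-0.62), as Ifngr2 did after the latter (-0.61), and both did in HFD after centring on transcript rows (-0.60 each). For Ifngr1 the NC sign turned after centring on genes past the filter.

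Among the transcription factors, Irf1, which acts directly on GBP promoters, read 13.45, 13.97, 13.64 and 14.06, with differences of 0.52 in NC and 0.42 in HFD. Its arrays labelled shNrf3 were above both shCtrl arrays, and its range over the 4 arrays was narrower than that of any of the 7. Stat2 differed by 0.84 in NC and -0.11 in HFD and Irf9 by 0.81 and -0.05, with HFD signs that turned after loess and after centring on genes past the filter. Of the 11 factors measured of 13 listed, 1 was 2-fold or more higher in NC and in HFD, the class II transactivator gene Ciita (1.44 and 1.27), and 1 was lower in HFD, the type I interferon factor gene Irf7 (-2.43, and 0.24 in NC). Over all genes 13.2% were that much higher in NC, 2.3% higher in HFD and 6.95% lower in HFD. Batf2, an interferon-induced partner of IRF1, differed by 0.66 in NC and by 0.93 or more in HFD.

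Of 13 ligand, receptor and kinase entries around interferon-gamma, 12 were measured, and 1 was 2-fold or more higher in NC and 1 lower in HFD. These counts are near the background, with 13.2% of all genes higher in NC and 6.95% lower in HFD. Il18, a cytokine that promotes interferon-gamma release, differed by 1.65 and 0.19, and the receptor gene Il12rb1 by 0.47 and 0.57. The gene lower in HFD was Il15 (-1.01, and 0.79 in NC), named after its value was seen. Of 12 ligand, receptor and kinase entries around type I interferon, 7 read below the control median on all 4 arrays, Ifnb1 among them. The 12 include Ifnlr1 and Il10rb, receptor genes of type III interferon, and Ifnlr1 is 1 of the 7. The receptor genes Ifnar1 and Ifnar2 differed by 1.22 and 1.02 in NC and by -0.09 and 0.14 in HFD, where the sign of Ifnar1 turned after loess, and Ifna5 by -0.57 and 1.38 at levels of 5.69 to 7.07.

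Negative regulators included Socs1, which blocks JAK activity, with levels of 4.90, 6.73, 5.22 and 5.75. Both shCtrl arrays were below the control median, so its differences were 1.34 or more in NC and 0.40 or more in HFD. Of the 7 regulators, 4 were higher by 2-fold or more in NC with 1 lower, and 0 were higher and 2 lower in HFD. The phosphatase gene Ptpn6 differed by 1.71 and 0.24, and Ptpn11 by -1.15 and -1.33. The others called, named after their values were seen, were Pias1 (1.30 in NC) and Usp18, which dampens type I receptor signalling (1.13 in NC and -1.08 in HFD).

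**Figure D5:**
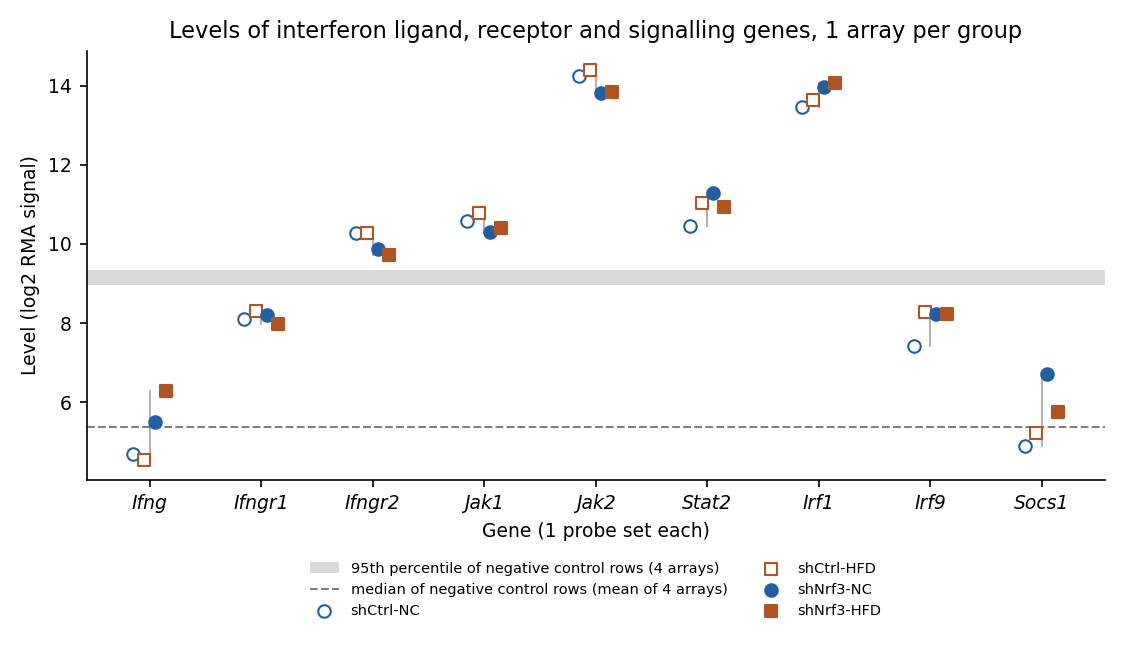
Levels (log2 RMA signal, vertical axis) of the interferon-gamma ligand, receptor and kinase genes and of Stat2, Irf1, Irf9 and Socs1 on the 4 arrays, with symbols, band and dashed line as in the plot of member levels. Ifng and Socs1 lie around the control median, the receptor and kinase genes span narrow ranges, and for Irf1 (13.45 to 14.06) both filled symbols are above both open ones.

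Among markers of host cells, the summed level of those of macrophages stood in the same order of arrays as most of the 7. Of 15 macrophage markers, 11 were 2-fold or more higher in NC and 3 in HFD, with 0 lower in either, and medians of 1.27 and 0.43. Their summed level (log2 of the summed signals) was 15.74 on shCtrl-NC, 17.16 on shNrf3-NC, 15.98 on shCtrl-HFD and 16.75 on shNrf3-HFD. In this and the other sums the genes of highest signal weigh most, and readings below the control median enter as read. Not every marker followed that order. At the deposited scaling 6 of the 15 read higher in HFD than in NC with shNrf3, and 3 read lower in HFD with shCtrl. Itgam, an integrin of myeloid cells, differed by 1.90 and 1.17, the chemokine receptor gene Ccr2 by 1.47 and 1.53 and the lysozyme gene Lyz2 by 1.49 and 1.03. Below 2-fold, 4 of the 15 read lower in HFD, the complement gene C1qb (-0.65, and 1.83 in NC), Cx3cr1 (-0.48, and -0.54 in NC), Cd14 (-0.31) and Mertk (-0.17, a sign that turned after centring on genes past the filter), all named after their values were seen. The part of macrophage content in the GBP and IRG differences was not tested.

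Of 18 T and NK cell markers, 5 were 2-fold or more higher in NC and 3 in HFD, with 0 and 1 lower, and their summed level was 10.29, 11.94, 10.11 and 10.88. Of these markers 16 of 18 read below the 95th percentile of the control rows on all 4 arrays. Cd3e read 5.37, 7.05, 5.71 and 5.01 and the NK receptor gene Ncr1 5.35, 5.30, 4.63 and 6.63, while granzyme B (Gzmb) differed by 4.20 and 1.67 and Klrd1 by 1.71 or more and 0.45 or more. Gzma differed by 0.88 and 1.43. The others called, named with Cd3e and Ncr1 after their values were seen, were Cd3g (2.08) and Cd8a (1.84) in NC and Cd4 (-1.30) in HFD. Their part was not tested either.

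Skeletal muscle and fat markers were highest on the array labelled shNrf3-NC. Muscle markers had summed levels of 10.69, 13.99, 10.80 and 9.72, with 7 of 12 being 2-fold or more higher in NC and 4 lower in HFD, and adipocyte markers 14.37, 16.03, 15.69 and 14.38, with 5 of 9 higher in NC and 5 lower in HFD. In HFD the difference was below 0 for 6 of the 12 muscle markers and above 0 for 6, with a median of -0.01. Of the 12 readings, 4 on shCtrl-HFD and 7 on shNrf3-HFD had been set to the control median. For Myh2, Myh4 and Pvalb, named after their values were seen, this held for both arrays. Their 0.03 is only the gap between the 2 control medians and shows no higher level. The even split and the median thus rest in part on these set values. Of the 9 adipocyte markers 7 read lower in HFD, with a median of -1.09. Endothelial markers were 2-fold or more lower for 6 of 10 in NC and 3 in HFD and fibroblast markers for 3 of 9 and 8 of 9, while neutrophil markers were higher for 3 of 6 and 0. Many of these markers were near the background. Below the control 95th percentile on all 4 arrays read 7 of 10 endothelial, 1 of 9 fibroblast, 3 of 6 neutrophil and 9 of 9 dendritic cell markers. The same held for 6 of 12 muscle and 4 of 9 adipocyte markers. The part of these cells in the GTPase differences was not tested.

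The 10 genes named next had profiles over the 4 arrays most like the median profile of the 7, by the root mean square difference of log2 values after each gene was centred on its own mean. They were Il1rn (0.081), Ly6c2 (0.084), Casp1 (0.097), Gbp8 (0.11), Gm12250 (0.13), Dram1 (0.13), Zhx2 (0.14), Itgam (0.15), Fcgrt (0.15) and F830016B08Rik (0.17). Il1rn encodes the interleukin-1 receptor antagonist and read 8.46, 10.95, 9.24 and 10.34, and Ly6c2 is a monocyte surface gene with a near-identical copy. Among the 7 themselves the same measure ran from 0.051 for Gbp2 to 0.62 for Gbp3. With 4 arrays these values are descriptions.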

How the data were processed

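Per the labels' protocols, 100 ng of total tumor RNA went into each biotin-labelled sample for an Affymetrix array. The authors deposited log2 values, obtained with RMA in Affymetrix Expression Console, per the submitters' processing notes. Their versions and the genome build were not given in the sources used here. Of 28846 rows, 22206 are transcript rows and 5222 negative controls. Depth does not apply to arrays, whose number limits the precision.

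The platform annotation named 19572 probe sets with 1 symbol, none with several, and left 2634 transcript rows unnamed. For 55 genes with several probe sets, the one of highest mean stood for the gene. Genes with a mean of 5.73 or more, the median of all row means, were kept. Readings below the array's control median were set to it before differences, which are then written "or more". Calls are at 2-fold. Counts by construct in every list are to be read beside the shares over all genes. These were 13.2% higher and 4.47% lower in NC, and 2.3% higher and 6.95% lower in HFD. The additive fit used limma 3.58.1 in R 4.3.3 (Benjamini-Hochberg, 1 residual degree of freedom), tested on simulated data. Members and lists were chosen with earlier results of these data known. Besides the 7 genes, the other family entries and a fixed set of pathway genes, the text names the 10 genes of most alike profile and, per list, the 3 with the largest averaged difference by construct. For markers these are given only for macrophages and for T and NK cells. Exceptions are marked. Alternatives covered scaling, filter, probe sets, floor, threshold and the variance trend.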

Additional observations from a re-analysis of the deposited data

Results flagged for a closer look

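With 1 array per group, named genes were picked out where 2 groups under the same contrast differed by 1.5-fold or more in opposite ways. The differences between groups were not tested. By construct 0 of the 7 GTPase genes did so, and 7 of the 86 other named genes did, given as shNrf3 minus shCtrl in NC and then in HFD. They were Bst2 (1.33 and -0.79), Ifit1 (1.30 and -1.65), Usp18 (1.13 and -1.08), Serping1 (1.58 and -1.86), C1qb (1.83 and -0.65), Ido1 (0.95 and -0.63) and Il15 (0.79 and -1.01). These 7 had been named after their values were seen, so their count cannot be set against that of the GTPase genes. List genes not named elsewhere also met the rule, such as Oas1a (0.83 and -1.74). The share of all genes is not given here. By diet 22 genes did, out of the 7 and the 86 others, given as HFD minus NC with shCtrl and then with shNrf3. Of the 7 GTPase genes these were Gbp2 (0.77 and -0.62), Gbp7 (1.5 and -0.65) and Iigp1 (0.84 and -0.66), of which Gbp7 alone stayed past 1.5-fold both ways after cyclic loess and 0 after centring on genes past the filter. Of their relatives they were Gbp4 (0.69 and -0.96), Gm12250 (0.73 and -0.88) and Gm4951 (1.77 and -0.82). The class II genes H2-Aa (1.0 and -1.16) and H2-Ab1 (1.31 and -0.87), Casp1 (0.87 and -0.67) and the galectin gene Lgals3 (1.14 and -0.90) went the same way. So did the type I interferon genes Irf7 (1.41 and -1.26), Mx2 (0.73 and -0.59), Oas2 (0.95 and -0.83), Bst2 (0.94 and -1.18), Ifit1 (1.77 and -1.18) and Usp18 (1.29 and -0.92), while Ifna5 went the other way (-1.07 and 0.88). Gzmb (0.996 and -1.54), Cd14 (0.60 and -0.78), Il1rn (0.78 and -0.61), Ly6c2 (0.78 and -0.63) and Fcgrt (0.86 and -0.63) were higher in HFD with shCtrl and lower with shNrf3.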

How the results depend on the processing

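The median difference by construct of the 7 genes ran from 2.06 to 2.37 in NC and from 0.72 to 0.98 in HFD over all settings, and the median diet difference from 0.19 to 0.61 with shCtrl and from -0.68 to -0.54 with shNrf3. At 1.5-fold in place of 2-fold, 5 genes were higher in HFD by construct (9.01% of all genes), 3 were higher by diet with shCtrl (31.1%, a share near theirs) and 6 lower with shNrf3 (14.3%). Centring on genes past the filter, added after the data were seen, made 1 gene (Iigp1) pass the construct term of the limma fit, with 25 of 10021 genes called for construct and 10 for diet, against 0 for either in the other limma fits. Of the values of single named genes, each counted once, 24 dropped below 2-fold under at least 1 setting, 19 came past a threshold, 6 moved by over 1.5-fold, all with no floor, and 0 of those at 1.5-fold or more changed sign. Centring on genes past the filter also took the partner genes higher in NC from 12 to 7 with 1 lower, and the muscle markers lower in HFD from 4 to 2, and there and after loess 5 fibroblast markers in place of 3 were lower in NC. Gbp2 in HFD fell just under 2-fold (0.99) after centring on transcript rows. Over all genes, 74.6% of those 2-fold apart by construct in NC were higher, against 64.9% after loess, 83.1% after centring on transcript rows and 53.4% after centring on genes past the filter. In HFD these shares were 24.8%, 34.9%, 20.2% and 56.1%. By diet with shCtrl they were 79.3%, 61.9%, 86.7% and 46.0%, and with shNrf3 26.3%, 26.5%, 22.0% and 41.1%. No paired analysis was possible because each group has 1 array, and for the same reason no replicate could be left out.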

Other observations

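Of 30 listed genes that act with GBPs and IRGs, in inflammasomes, autophagy or lipid anchoring, 27 were measured. In NC 12 were 2-fold or more higher and 0 lower on the array labelled shNrf3 (median 0.91; 7 and 1 after centring on genes past the filter), and in HFD 1 was higher and 1 lower (median 0.22). The inflammasome protease gene Casp1 differed by 2.29 in NC and 0.75 in HFD, and Casp4, whose product senses bacterial lipopolysaccharide, by 1.16 and 0.56. Gabarap, an autophagy protein of the LC3 family, differed by 2.13 and 0.25, and Lgals3, a lectin that binds damaged vacuoles, by 2.18 and 0.14. The pore-forming gene Gsdmd differed by 1.36 and 0.35. Autophagy genes that place IRGs and GBPs on vacuoles varied, with Atg5 at -0.80 and 0.51, Atg3 at 0.03 and 0.02 and Atg16l1 at 1.38 and -0.01. The 1 gene higher in HFD was the cytokine gene Il1b (1.04) and the 1 lower was Fntb (-1.13), a subunit of farnesyltransferase. Both counts of 1 of 27 are near the background, with 2.3% of all genes higher and 6.95% lower in HFD. Casp4, Gsdmd, Il1b, Fntb and the 3 autophagy genes were named after their values were seen.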
